A study of Oryza sativa Japonica Group with 9 samples.

Results

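The genes described here are the rice genes of the cytokinin and ethylene pathways that could be read on an Affymetrix rice array in egg cells and in the first hours after pollination. They were chosen by name alone: a gene was taken when its symbol or a synonym carried one of the family names RR, HK, HP, IPT, CKX or LOG for cytokinin, or ERF, ETR, ERS, EIN, EIL, ACS, ACO or CTR for ethylene. A probe set is the group of short probes that reads one transcript, and each gene was read by the brightest probe set that pairs with it alone. The rule took 51 of the 17905 genes with a probe set of their own, 31 for cytokinin and 20 for ethylene. In all, 68 annotated genes matched the names, and the 17 without a probe set of their own were not analysed here. No gene matched by IPT, the first step of cytokinin synthesis, or by CTR, the kinase that acts with the ethylene receptors, was among the 51.

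The study compared 3 stages of wild-type japonica rice, cultivar Katy, grown in a greenhouse, with 3 arrays each. Unfertilized egg cells were taken at anthesis, at 0 hours after pollination (hap), fertilized egg cells at 1 to 1.5 hap and zygotes at 2.5 to 3 hap, so that the series spans the fusion of the gametes and of their nuclei. All cells were freed from excised ovules without enzymes, and the later stages followed pollination on the plant. Each array read a pool of about 100 cells, with an estimated 25 pg of RNA in a cell and thus 2.5 ng in the pool, after amplification in 2 cycles. The labels call the arrays biological replicates and do not say whether separate plants were used, so p-values measure the spread between these pools. In pools, a transcript carried by fewer cells and one with fewer copies per cell cannot be told apart.

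Cytokinins are plant hormones that promote cell division and maintain meristems. LOG enzymes release the active hormone from its nucleotide form, and CKX oxidases break it down. Histidine kinase receptors pass a phosphate through phosphotransfer proteins to response regulators in the nucleus, where type B regulators activate transcription and type A regulators, which are themselves cytokinin-induced, damp the response. Ethylene is a gas made from ACC by ACC synthase and ACC oxidase. Its receptors repress the pathway in air, and once ethylene binds, EIN2 passes the signal to EIN3-like transcription factors, which act on ERF genes.

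Several features of the arrays bear on every comparison. The free-text descriptions go against the other labels: they call the egg cell samples seedlings, the fertilized egg samples pollen and the zygote samples sperm cells, whereas titles, stage labels and the design text name the stages used here. The egg cell marker list matched 0 genes, so the egg label could not be checked on it. The summed signal of 6 leaf genes was 13270 to 22050 in egg cells, 14700 to 19630 at the fertilized egg stage and, in zygotes, 2899 to 14810, led by the chlorophyll-binding protein gene CAB2R. Egg cell means of the other leaf genes ran from 17.5 (RBCS1) to 2896 (PETE). The sum of 9 pollen and anther genes was 6051 to 6706, 9008 to 10790 and 5555 to 8216, that of 6 ovule wall and nucellus genes 33910 to 53980, 33300 to 39260 and 24010 to 42030, and that of 13 endosperm genes 13200 to 22400, 19580 to 46960 and 15890 to 27060, in the same order. MTR1 led the pollen and anther sum, with means of 3123 in egg cells and 6451 in fertilized eggs. The means of MSP1 (1141 and 1139) and GAMYB (1897 and 1876) hardly differed between these stages. GBSS-I led the endosperm sum, with 35882 in fertilized egg 3, and egg cell means of the other endosperm genes ran from 0.86 (GLUA-1) to 2591 (SS1). The early embryo genes WOX8 and WOX9 summed to 247.6 to 303.9, 186.5 to 350.7 and 411.3 to 518.6, with the zygote arrays above the others. Neither gene showed this order alone. WOX8 was 302 in zygote 3 and 316 in fertilized egg 2, and the dim WOX9 was 14.5 in zygote 1 and 52.9 in egg cell 2. The poly-A spikes, added before amplification, differed from the hybridization spikes by log2 values of -4.00 to -3.13 in egg cells and -1.74 to 0.57 in the later stages. Zygote replicate 2 stood apart, its median correlation to the remaining arrays being 0.694 against 0.866 to 0.929 elsewhere. Among the 42 tested genes of the pathways 8 had their lowest value there and 11 their highest, 19% and 26.2%, against 29.7% and 20.5% of all genes. Fertilized egg replicate 3 held the lowest value of 9 of the 42 genes, 21.4% against 14.3% of all genes, and had the widest gap between 3′ and 5′ control probes, a sign of RNA or amplification quality, at 7.39 log2 units against 4.59 to 6.19 in the others. The part of the marker genes, the spikes and these 2 arrays in the results below was not tested, except where values without an array are given.

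Of the 51 genes, 42 were bright enough to be tested, 27 for cytokinin and 15 for ethylene. The other 9 stayed below the filter, which asked for a mean log2(signal + 15) at or above the median of all rice probe sets. In limma's fit over all 28597 probe sets kept, 0 of the 42 passed an adjusted p of 0.05 in any of the 3 comparisons or in the F test over the stages. Over all 15342 genes tested, the share that passed was 0.013% for fertilized egg minus egg, 0% for zygote minus fertilized egg, 0.0521% for zygote minus egg and 0.0326% in the F test. With array quality weights, which let noisier arrays count less, those shares were 4.95%, 0%, 2.2% and 6.09%, and still 0 of the 42 passed. At an unadjusted p under 0.05, limma gave 3 of the 42 for fertilized egg minus egg (10.1% of all genes), 4 for zygote minus fertilized egg (10.8% of all genes) and 6 for zygote minus egg (15.1% of all genes). The F test gave 5, against 13.8% of all genes.

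As a share of the 42, each of these counts was below that of all genes. The 27 cytokinin genes had median log2 changes of -0.02, -0.05 and 0.06 in the order fertilized egg minus egg, zygote minus fertilized egg and zygote minus egg. The 15 ethylene genes had -0.15, 0.24 and -0.08, and all genes tested had 0.01, -0.07 and -0.08. Of these 15, 7 are DREB genes taken through an ERF number, with -0.41, 0.34 and -0.08. The 8 others had 0.03, 0.12 and -0.04. A log2 change of 1 is a doubling of signal + 15, which understates the change of dim genes. The median 95% confidence interval of a single gene reached 1.17 log2 units to either side, a 2.24-fold difference. For single genes this half-width ran from 0.56 to 2.31. Changes smaller than 2.24-fold were mostly not detectable with 3 arrays per stage. Larger ones could also miss the adjusted threshold, since the interval is not adjusted for the number of probe sets. CKX3, at 3.99-fold from egg to fertilized egg, had an adjusted p of 0.422 by limma. The range printed after a log2 change below is its lowest and highest value when each of the 9 arrays was left out in turn.

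**Figure D1:**
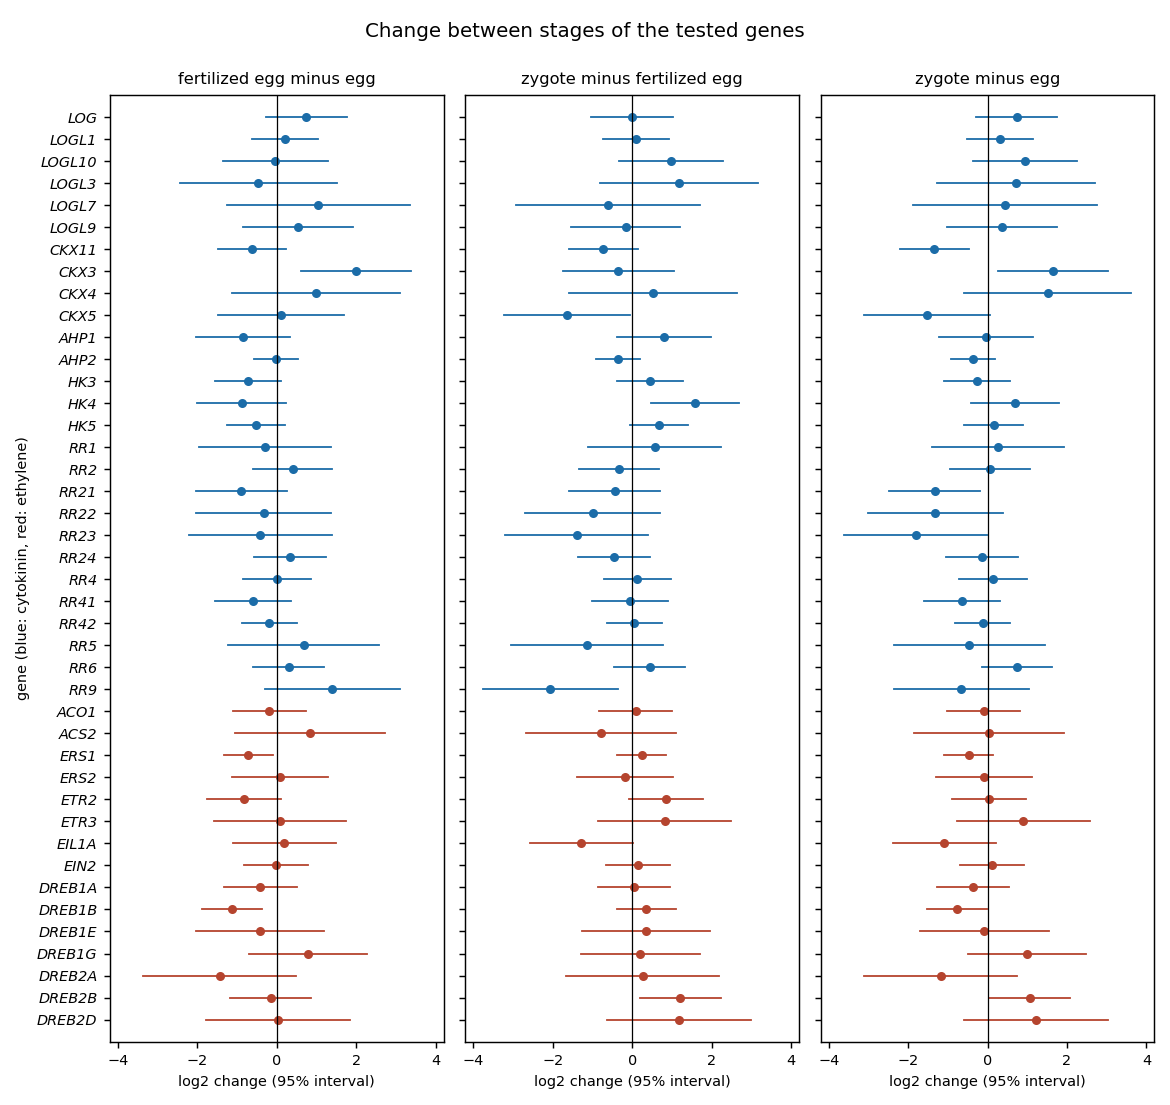
Log2 change of each of the 42 tested genes in the 3 comparisons of the stages, with points for the limma estimate and lines for its 95% interval (blue, cytokinin; red, ethylene). Most intervals cross 0, and the few that do not, such as those of CKX3, HK4 and DREB2B, belong to genes whose adjusted p missed the threshold.

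Although no gene passed, the arrays of 2 stages sometimes did not overlap. From egg to fertilized egg, all 3 arrays lay higher for 5 of the 42 genes (14.1% of all genes tested) and lower for 7 (12.3% of all genes). From fertilized egg to zygote, 3 genes were higher (5.6% of all genes) and 3 lower (8.08% of all genes) without overlap. From egg to zygote the counts were 2 higher (10.6% of all genes) and 4 lower (10.4% of all genes). As shares of the 42 these counts were 11.9% and 16.7%, then 7.14% and 7.14%, then 4.76% and 9.52%, all within a few genes of the background. The role groups below are described in the order in which the hormone is made, broken down and perceived.

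LOG enzymes, which carry out the last activation step of cytokinin, had 8 genes, and 6 were tested. All 6 had a positive log2 change from egg to zygote, from 0.30 to 0.93 with a median of 0.57, and none passed the test (lowest adjusted p = 0.443 by limma). Under quantile normalization 4 of the 6 were above 0, with a median of 0.03 where all genes had -0.17, and without zygote 2 or without zygote 3 it was 5 of the 6. LOG itself, known in rice for keeping the shoot meristem active, gave signals of 115, 222 and 187 in the egg cell pools, 233, 333 and 323 at the fertilized egg stage and 339, 242 and 301 in the zygote pools. Every fertilized egg and zygote array lay above the 3 egg arrays. Its mean signals were 175 ± 54.7, 296 ± 55.1 and 294 ± 48.7 (SD, n = 3 arrays per stage). Its log2 changes were 0.74 ± 0.47 (SE, limma adjusted p = 0.673, range 0.49 to 0.92) to the fertilized egg and 0.74 ± 0.47 (SE, limma adjusted p = 0.443, range 0.48 to 0.92) to the zygote, and under quantile normalization the second was 0.03.

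LOGL10 gave signals of 161, 234 and 498 in the egg cell pools, 303, 242 and 242 at the fertilized egg stage and 204, 841 and 822 in the zygote pools. Zygotes 2 and 3 were the highest of the 9 arrays, while zygote 1 lay among the earlier ones, so the stages overlapped and the change from fertilized egg was 0.97 ± 0.60 (SE, limma adjusted p = 0.591, range 0.63 to 1.62). It was 1.62 without zygote 1, 0.63 without zygote 2 and 0.65 without zygote 3. LOGL1 gave signals of 906, 1189 and 803 in the egg cell pools, 704, 1233 and 1499.6 at the fertilized egg stage and 1177, 1584 and 874 in the zygote pools, with all stages overlapping and a change to the zygote of 0.30 ± 0.38 (SE, limma adjusted p = 0.711, range 0.09 to 0.51), lowest without zygote 2. Its probe set is of a type that can bind related transcripts, so its identity is less certain.

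CKX oxidases, which break cytokinin down, had 5 genes, of which 4 were tested, and none passed the test (lowest adjusted p = 0.218 by limma). CKX3 and CKX4 had positive log2 changes from egg to both later stages, and CKX11 had negative ones. CKX3 gave signals of 86.4, 16.4 and 21.9 in the egg cell pools, 196, 191 and 156 at the fertilized egg stage and 175, 180 and 82.6 in the zygote pools. Egg cell 1 was well above the other egg arrays, yet all 3 fertilized egg arrays lay above it, and 1 zygote array was just below it. The means were 41.6 ± 38.9, 181 ± 21.8 and 146 ± 54.9 (SD, n = 3 arrays per stage). The change to the fertilized egg was 2.00 ± 0.64 (SE, limma adjusted p = 0.422, range 1.67 to 2.52), with an interval of 0.60 to 3.39, and with array weights the adjusted p was 0.0508 by limma, the lowest of any gene of the pathways in any setting. To the zygote it was 1.65 ± 0.64 (SE, limma adjusted p = 0.267, range 1.33 to 2.17).

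CKX11 is an oxidase gene whose mean signal was lower at each later stage. It gave signals of 3729, 3021 and 4219.8 in the egg cell pools, 3445, 2437 and 1538 at the fertilized egg stage and 1704, 814 and 2036 in the zygote pools. The 3 zygote arrays all lay below the 3 egg arrays, and the fertilized eggs overlapped both. The means were 3656 ± 603, 2473 ± 954 and 1518 ± 632 (SD, n = 3 arrays per stage), and the change from egg to zygote was -1.35 ± 0.40 (SE, limma adjusted p = 0.218, range -1.61 to -0.95), with an interval of -2.21 to -0.48. This was the lowest adjusted p of the 42 genes in that comparison. Zygote 2 was the lowest array, and without it the change was -0.95 ± 0.35 (SE, limma adjusted p = 0.302), while without zygote 1 the adjusted p was 0.0744 by limma. A dimmer probe set of CKX11 disagreed, with a change from egg to zygote of 0.04 (adjusted p = 0.981 by limma).

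CKX5 gave signals of 143, 1471 and 218 in the egg cell pools, 405, 367 and 414 at the fertilized egg stage and 141, 150.4 and 71.9 in the zygote pools. Egg cell 2 held most of the egg cell mean, the fertilized eggs were close to each other, and every zygote array was below every fertilized egg array. The change from fertilized egg to zygote was -1.65 ± 0.73 (SE, limma adjusted p = 0.457, range -1.81 to -1.35). CKX4 gave signals of 36.8, 40.0 and 3.21 in the egg cell pools, 70.5, 48.6 and 58.6 at the fertilized egg stage and 4.67, 333 and 160.2 in the zygote pools, with 1 array of the egg cells and 1 of the zygotes near background. All fertilized eggs lay above all egg cells, with a change of 0.98 ± 0.97 (SE, limma adjusted p = 0.804, range 0.47 to 1.26), and the zygotes overlapped both. Under quantile normalization the zygote minus egg changes of CKX3 and CKX4 were 0.73 and 0.53. The zygote minus egg change of CKX4, 1.51 ± 0.97 (SE, limma adjusted p = 0.444, range 0.65 to 2.73), was 0.65 without zygote 2 and 2.73 without zygote 1.

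The cytokinin receptors HK3, HK4 and HK5, histidine kinases of the cell's membranes, had none past the test. All 3 were lower in every fertilized egg array than in any egg array, an order that 12.3% of all genes showed, and HK4 and HK5 were higher in every zygote array than in any fertilized egg array, as were 5.6% of all genes. Where arrays do not overlap, leaving out 1 array, another offset or array weights cannot turn the sign, so those settings add nothing there. Under quantile normalization the 3 changes kept their signs in both steps. The HK3 change from fertilized egg to zygote, where arrays overlapped, stayed above 0 in every setting. HK4 gave signals of 351, 275 and 376 in the egg cell pools, 222, 268 and 82.6 at the fertilized egg stage and 375, 659 and 642 in the zygote pools. Fertilized egg 3 was the lowest of the 9 arrays and zygotes 2 and 3 the highest. The means were 334 ± 52.6, 191 ± 96.5 and 559 ± 159.7 (SD, n = 3 arrays per stage), and the changes were -0.89 ± 0.51 (SE, limma adjusted p = 0.646, range -1.19 to -0.42) to the fertilized egg and 1.57 ± 0.51 (SE, limma adjusted p = 0.361, range 1.10 to 1.87) from there to the zygote, the latter with an interval of 0.46 to 2.69. The second was the lowest adjusted p of the 42 genes in that comparison. Without fertilized egg 3 the changes were -0.42 and 1.10, and without zygote 2 the second was 1.44 ± 0.52 (SE, limma adjusted p = 0.302).

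HK5 gave signals of 818, 859 and 1149 in the egg cell pools, 644, 762 and 542 at the fertilized egg stage and 1070.4, 1234 and 839 in the zygote pools. Its changes were -0.52 ± 0.34 (SE, limma adjusted p = 0.681, range -0.64 to -0.37) and 0.67 ± 0.34 (SE, limma adjusted p = 0.512, range 0.55 to 0.82). A dimmer second probe set showed the same ordering of the 3 stage means, with -0.82 and 1.52 (adjusted p = 0.749 and 0.457 by limma). Its zygotes were at 233, 631 and 82.1, the last below every egg array (118 to 154). With array weights its change from egg to zygote was -0.07. The brighter HK5 probe set is of a type shared between related transcripts. HK3 gave signals of 1315, 1380.1 and 1747 in the egg cell pools, 745, 1201 and 766 at the fertilized egg stage and 1923, 782 and 1194 in the zygote pools, with a change to the fertilized egg of -0.73 ± 0.38 (SE, limma adjusted p = 0.621, range -0.95 to -0.60). Its zygotes overlapped both earlier stages, and its change from fertilized egg to zygote was 0.46 ± 0.38 (SE, limma adjusted p = 0.692, range 0.13 to 0.77), lowest without zygote 1 and highest without zygote 2. From egg to zygote the changes of the 3 receptors were -0.27 to 0.68, and their arrays overlapped.

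Phosphotransfer proteins carry the signal from receptor to nucleus, and AHP1 and AHP2 were both tested. AHP2 gave signals of 8905, 9599 and 12346 in the egg cell pools, 10104, 9466 and 10619.8 at the fertilized egg stage and 8393, 6229.6 and 9378 in the zygote pools. It was bright at every stage, with overlapping egg cells and fertilized eggs and zygotes below every fertilized egg array. The change from fertilized egg to zygote was -0.35 ± 0.26 (SE, limma adjusted p = 0.648, range -0.47 to -0.18), smallest in size without zygote 2, and the change from egg to fertilized egg was -0.02 ± 0.26 (SE, limma adjusted p = 0.99, range -0.11 to 0.12), with an interval of -0.58 to 0.54. AHP1 showed log2 changes of -0.85 and 0.80 in the same steps as the receptors, with overlapping arrays.

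**Figure D2:**
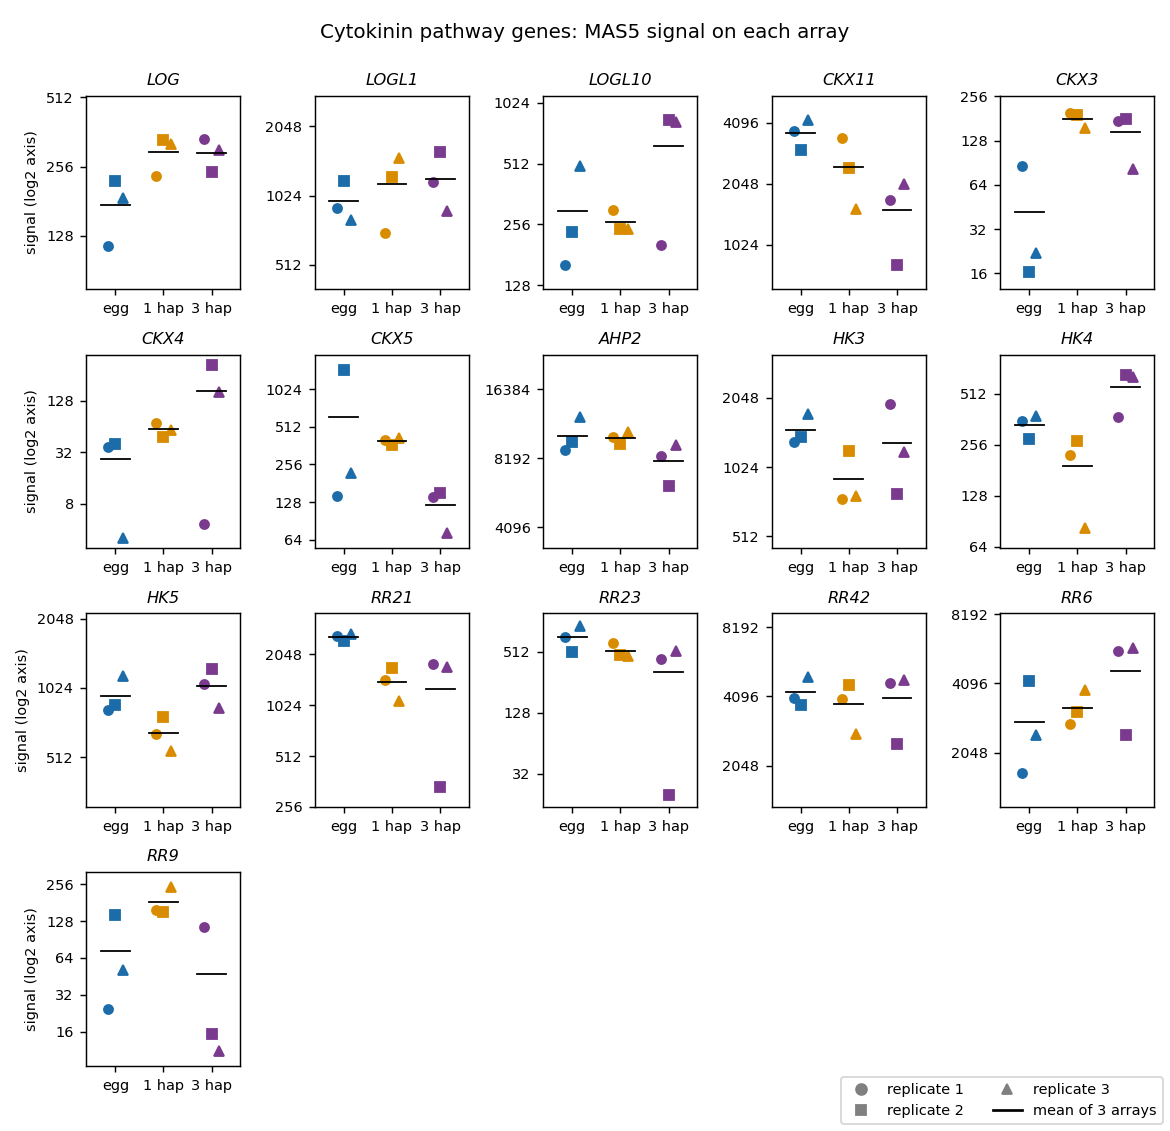
Signal of 16 cytokinin genes on each array, with 1 panel per gene, stage on the x axis (egg cell, fertilized egg at about 1 hap, zygote at about 3 hap) and linear MAS5 signal on a log2 y axis whose range differs between panels. Symbols mark the replicates and bars the mean of 3 arrays; HK3, HK4 and HK5 have their lowest means in fertilized eggs, and zygote replicate 2 is far below the rest for RR21 and RR23.

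Response regulators had 13 genes, of which 12 were tested. The 6 type A genes, the cytokinin-induced brakes on the pathway, had log2 changes from -0.30 to 1.40 from egg to fertilized egg, 5 of them above 0 (3 of them without egg cell 1), and none passed the test (lowest adjusted p = 0.639 by limma). RR9 had the largest of these. It gave signals of 24.4, 143 and 50.8 in the egg cell pools, 158, 153 and 242 at the fertilized egg stage and 115, 15.3 and 11.1 in the zygote pools. All fertilized eggs were above all egg cells and all zygotes, and zygote 1 was far above the other zygotes. The changes were 1.40 ± 0.78 (SE, limma adjusted p = 0.639, range 0.94 to 1.94) up to the fertilized egg and -2.06 ± 0.78 (SE, limma adjusted p = 0.406, range -2.80 to -1.64) from there to the zygote. Without zygote 1 the second was -2.80 ± 0.73 (SE, limma adjusted p = 0.161).

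RR6, a bright type A gene, gave signals of 1675, 4210.1 and 2443 in the egg cell pools, 2719.9, 3087 and 3832 at the fertilized egg stage and 5651, 2436 and 5831 in the zygote pools. Zygotes 1 and 3 were the highest arrays and zygote 2 was among the egg cells, so the stages overlapped. The change from egg to zygote was 0.74 ± 0.41 (SE, limma adjusted p = 0.382, range 0.43 to 1.15). RR1, RR2, RR4 and RR5, the other type A genes, gave log2 changes from egg to zygote of 0.26, 0.06, 0.14 and -0.46, and their arrays overlapped in each comparison. In this comparison 4 of the 6 type A genes were above 0, with a median of 0.10. Under quantile normalization it was 1 of the 6, with a median of -0.49 where all genes had -0.17.

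The 4 type B genes RR21, RR22, RR23 and RR24, which encode transcription factors, all had negative log2 changes from egg to zygote, from -1.81 to -0.14 with a median of -1.33, and none passed the test (lowest adjusted p = 0.270 by limma). Without egg cell 1 or without egg cell 3, 3 of the 4 were below 0. Zygote 2 was the lowest array for RR21, RR22 and RR23, and without it the median was -0.37. RR21 gave signals of 2610.4, 2454 and 2708 in the egg cell pools, 1443, 1705 and 1077 at the fertilized egg stage and 1789, 336 and 1712 in the zygote pools. The egg cells agreed closely, at 2591 ± 128 (SD, n = 3), and every later array lay below them. The change to the fertilized egg was -0.90 ± 0.53 (SE, limma adjusted p = 0.656, range -1.05 to -0.72). That to the zygote was -1.34 ± 0.53 (SE, limma adjusted p = 0.27, range -1.74 to -0.56), and without zygote 2 it was -0.56 ± 0.29 (SE, limma adjusted p = 0.423), while the change from fertilized egg to zygote turned from -0.44 to 0.34.

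RR23 gave signals of 710.3, 513 and 923 in the egg cell pools, 620.4, 475 and 466 at the fertilized egg stage and 428, 19.8 and 522 in the zygote pools. Zygote 2 was near background and zygotes 1 and 3 lay close to the fertilized eggs. The change from egg to zygote of -1.81 ± 0.83 (SE, limma adjusted p = 0.309, range -2.52 to -0.54) was -0.54 ± 0.37 (SE, limma adjusted p = 0.538) without zygote 2. RR42, a regulator of neither set, gave signals of 4040.4, 3749 and 4986 in the egg cell pools, 3989.7, 4601 and 2795 at the fertilized egg stage and 4683, 2541 and 4843 in the zygote pools. Its stages overlapped throughout, and the change from egg to zygote was -0.13 ± 0.32 (SE, limma adjusted p = 0.861, range -0.29 to 0.17), with an interval of -0.83 to 0.57.

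Ethylene synthesis was read by ACS1, ACS2 and ACO1. ACO1, which encodes the oxidase of the last step, gave signals of 904, 2074 and 1593 in the egg cell pools, 1097, 1938 and 933 at the fertilized egg stage and 1576, 878 and 1737 in the zygote pools. The 3 stages covered the same range, with changes of -0.19 ± 0.42 (SE, limma adjusted p = 0.919, range -0.53 to 0.07) to the fertilized egg and -0.10 ± 0.42 (SE, limma adjusted p = 0.919, range -0.44 to 0.20) to the zygote. The second has an interval of -1.02 to 0.82. ACS2, an ACC synthase, was dim, with signals of 25.1, 159 and 13.5 in the egg cell pools, 70.7, 72.0 and 135 at the fertilized egg stage and 5.97, 75.3 and 97.1 in the zygote pools. Single arrays of the egg cells and zygotes spanned most of its range, and the change from egg to zygote was 0.03 ± 0.87 (SE, limma adjusted p = 0.989, range -0.48 to 0.82). The synthase gene ACS1 was below the filter and was not tested. It gave signals of 2.73, 13.4 and 3.28 in the egg cell pools, 15.4, 4.50 and 6.08 at the fertilized egg stage and 10.02, 20.9 and 24.5 in the zygote pools, all near or below the offset of 15.

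Ethylene receptors had 5 genes, of which 4 were tested. ERS1 gave signals of 4928, 5796 and 6152 in the egg cell pools, 3440.3, 4079.7 and 2809 at the fertilized egg stage and 4827, 4437 and 3030.2 in the zygote pools. Every fertilized egg and zygote array was below every egg array. The means were 5625 ± 629.5, 3443 ± 635 and 4098 ± 945 (SD, n = 3 arrays per stage), and the changes were -0.72 ± 0.28 (SE, limma adjusted p = 0.499, range -0.85 to -0.58) to the fertilized egg, with an interval of -1.33 to -0.10, and -0.48 ± 0.28 (SE, limma adjusted p = 0.409, range -0.61 to -0.27) to the zygote.

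ETR2 gave signals of 1769, 1739.9 and 2416 in the egg cell pools, 1401, 1625 and 572 at the fertilized egg stage and 3071, 1424 and 1789.7 in the zygote pools. All fertilized eggs lay below all egg cells, with fertilized egg 3 the lowest, and the zygotes overlapped both. Its changes were -0.83 ± 0.43 (SE, limma adjusted p = 0.612, range -1.11 to -0.37) and then 0.85 ± 0.43 (SE, limma adjusted p = 0.51, range 0.39 to 1.13) to the zygote. Without fertilized egg 3 they were -0.37 and 0.39, and without zygote 1 the second was 0.54. ERS2, with signals of 173, 322 and 171 in the egg cell pools, 169.9, 170 and 393 at the fertilized egg stage and 197, 298 and 129.9 in the zygote pools, overlapped at all stages, with a change from egg to zygote of -0.10 ± 0.55 (SE, limma adjusted p = 0.945, range -0.38 to 0.19). ETR3 had log2 changes of 0.08 and 0.82 in the same steps, also with overlap, and ETR4 was dim, at 1.53 to 52.7.

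EIN2, the membrane protein through which the ethylene signal passes, gave signals of 576, 624 and 514 in the egg cell pools, 575, 519.6 and 581 at the fertilized egg stage and 434, 703 and 766 in the zygote pools. The 3 stages overlapped, and the means were 571 ± 55.4, 558 ± 33.8 and 634 ± 176 (SD, n = 3 arrays per stage). The change to the fertilized egg was -0.03 ± 0.37 (SE, limma adjusted p = 0.988, range -0.10 to 0.04), with an interval of -0.84 to 0.78, and that from egg to zygote was 0.11 ± 0.37 (SE, limma adjusted p = 0.898, range -0.04 to 0.36).

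EIL1A, an EIN3-like transcription factor, gave signals of 10336, 15265 and 10332 in the egg cell pools, 18880.3, 15273 and 8391 at the fertilized egg stage and 13399, 1688 and 7436 in the zygote pools. Zygote 2 was far below all other arrays, and the rest overlapped. The change from fertilized egg to zygote was -1.28 ± 0.59 (SE, limma adjusted p = 0.479, range -1.92 to -0.43), and without zygote 2 it was -0.43 ± 0.38 (SE, limma adjusted p = 0.716). Without zygote 1 it was -1.92 ± 0.54 (SE, limma adjusted p = 0.173). A dimmer probe set of the gene gave -0.02 for the same step (adjusted p = 0.994 by limma). EIL1B, which lies next to EIL1A on chromosome 3, was below the filter and was not tested. It gave signals of 3.99, 39.6 and 26.4 in the egg cell pools, 64.7, 42.6 and 28.8 at the fertilized egg stage and 17.9, 205 and 89.6 in the zygote pools, with zygotes 2 and 3 the highest arrays.

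**Figure D3:**
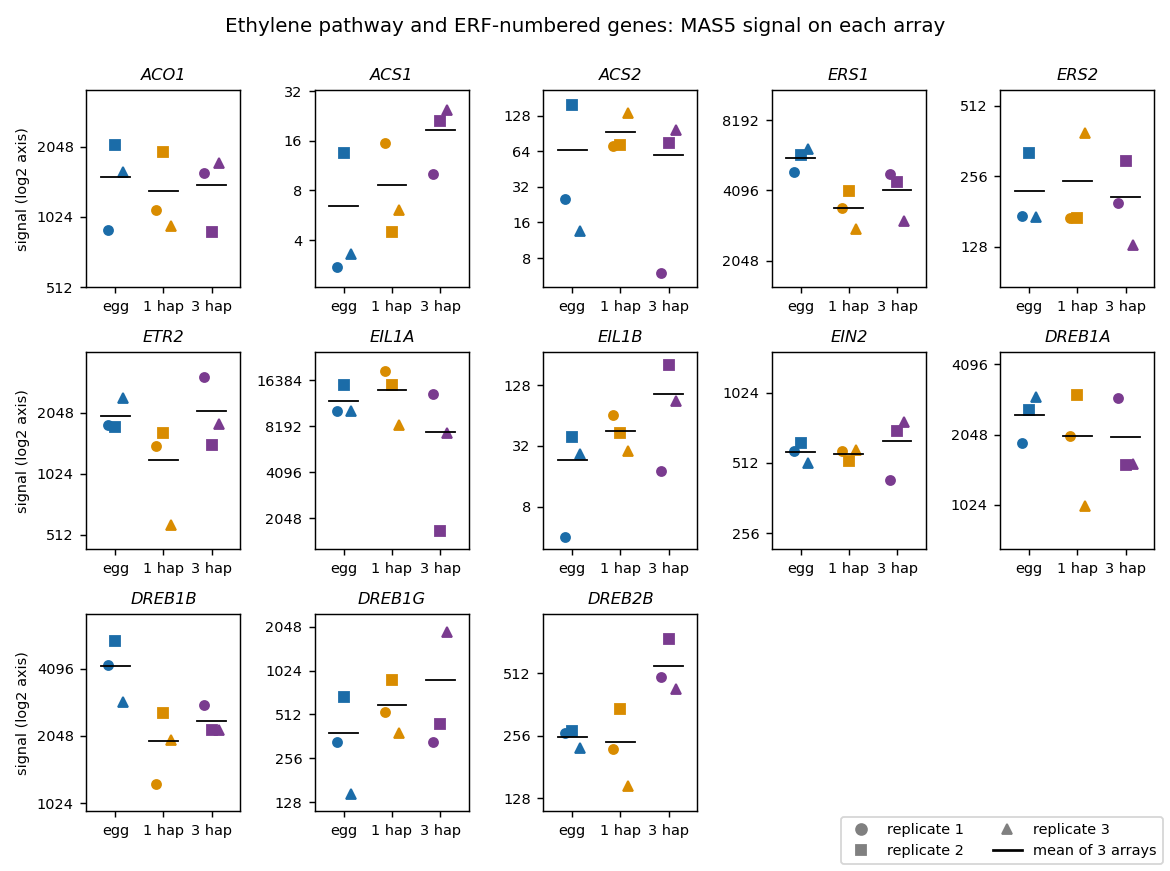
Signal of 13 ethylene pathway and ERF-numbered genes on each array, drawn as for the cytokinin genes, with linear MAS5 signal on log2 y axes whose ranges differ between panels. ERS1 is lower in all 6 later arrays than in egg cells, DREB2B is highest in the 3 zygote arrays, and zygote replicate 2 is far below the others for EIL1A.

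The 9 genes taken through an ERF number were 8 DREB genes and FZP. They belong to the AP2/ERF family by structure, but DREB genes are best known for responses to drought and cold and FZP for spikelet development, and neither is a known step of ethylene signalling itself. Of the 7 DREB genes tested, all 7 had a positive log2 change from fertilized egg to zygote, from 0.05 to 1.21 with a median of 0.34, where the median of all genes was -0.07, and none passed the test. Leaving out 1 array brought this count down to as few as 4 of the 7, without zygote 3, and under quantile normalization it was 6. From egg to fertilized egg, 5 of the 7 were below 0, and from egg to zygote 4 were.

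DREB1B gave signals of 4249.6, 5421 and 2918 in the egg cell pools, 1245, 2594 and 1971 at the fertilized egg stage and 2831, 2168 and 2180.2 in the zygote pools. All fertilized egg arrays and all zygote arrays lay below the 3 egg arrays. The means were 4196 ± 1253, 1937 ± 676 and 2393 ± 379 (SD, n = 3 arrays per stage), and the change to the fertilized egg was -1.13 ± 0.35 (SE, limma adjusted p = 0.396, range -1.37 to -0.84), with an interval of -1.88 to -0.38. With array weights its adjusted p was 0.0916 by limma. DREB1A lies near DREB1B on chromosome 9, with 1 gene between them. It gave signals of 1891, 2599 and 2977 in the egg cell pools, 2023, 3009 and 1009 at the fertilized egg stage and 2922, 1509 and 1539 in the zygote pools, with overlapping stages and a change to the fertilized egg of -0.41 ± 0.42 (SE, limma adjusted p = 0.81, range -0.77 to 0.01).

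DREB2B gave signals of 265, 269 and 222 in the egg cell pools, 221, 346 and 146 at the fertilized egg stage and 489, 745 and 431 in the zygote pools. The 3 zygote arrays were above all 6 earlier arrays, which overlapped each other. The means were 252 ± 25.7, 238 ± 101 and 555 ± 167 (SD, n = 3 arrays per stage). The changes to the zygote were 1.21 ± 0.47 (SE, limma adjusted p = 0.41, range 0.93 to 1.51) from the fertilized egg and 1.06 ± 0.47 (SE, limma adjusted p = 0.296, range 0.83 to 1.22) from the egg, and without zygote 2 they were 0.98 and 0.83. DREB1G gave signals of 331, 677 and 146 in the egg cell pools, 529, 884 and 383 at the fertilized egg stage and 331, 438 and 1890 in the zygote pools. Zygote 3 was the highest array and the other zygotes lay among the earlier ones, with a change from egg to zygote of 0.99 ± 0.69 (SE, limma adjusted p = 0.478, range 0.23 to 1.50). The lowest value of that range came without zygote 3.

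**Figure D4:**
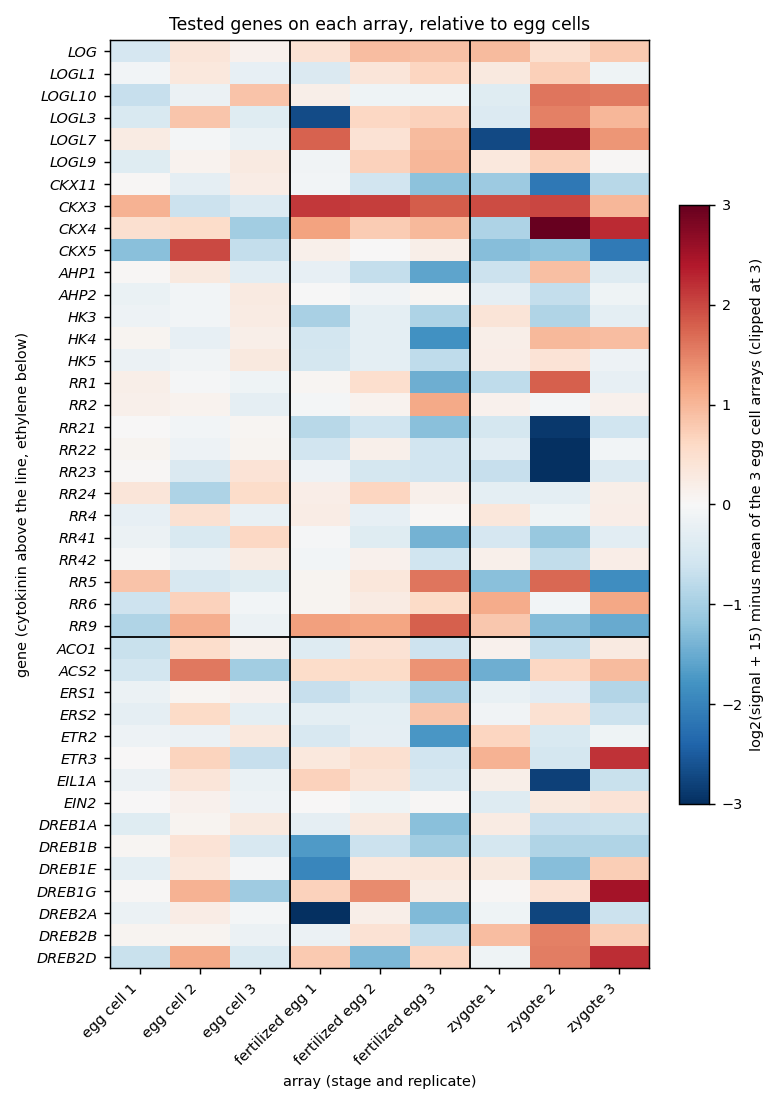
Heat map of the 42 tested genes (rows; cytokinin above the line, ethylene below) on the 9 arrays (columns), coloured by log2(signal + 15) minus the mean of the 3 egg arrays and clipped at 3 units. Blue cells for HK3, HK4, HK5, ERS1 and DREB1B fill the fertilized egg columns, and zygote replicate 2 holds many of the darkest cells of either colour.

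Besides those named above, the genes below the filter were CKX1, LOGL5, LOGL6, RR33, DREB1C and FZP. DREB1C ranged from 7.23 to 957 over the 9 arrays. The other 5 peaked between 59.5 and 192. In the tested genes not described singly, which were LOGL3, LOGL7, LOGL9, RR22, RR24, RR41, DREB1E, DREB2A and DREB2D, only LOGL7 had stages without overlap. It was higher in every fertilized egg array than in any egg array, with a change of 1.05 ± 1.06 (SE, limma adjusted p = 0.809).

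No further gene of either pathway, taken from a list of names outside the families above, passed the test. For cytokinin this list held PHP5, a pseudo-phosphotransfer gene, with signals of 678, 354 and 619.6 in the egg cell pools, 340.3, 488 and 313 at the fertilized egg stage and 705, 1273 and 450.3 in the zygote pools. Its stages overlapped, and the log2 changes were -0.49 and then 0.96. For ethylene there were 12 genes, and limma called 0 of the 12 in any comparison. At an unadjusted p under 0.05 it gave 0, 2 and 1 of the 12, against 10.1%, 10.8% and 15.1% of all genes. Of the 12 genes, OsSK1 and OsSK2 may be other genes than the ethylene response genes of that symbol, and without them the unadjusted counts were 0, 1 and 1 of 10. The 12 genes' median log2 changes were 0.33, -0.07 and 0.29. EREBP-1, which encodes an ERF-type DNA-binding protein, gave signals of 13052, 14987 and 11961 in the egg cell pools, 11244, 11874 and 10895 at the fertilized egg stage and 16231, 12486 and 20861 in the zygote pools, with a change from egg to zygote of 0.28 ± 0.25 (SE, limma adjusted p = 0.586). SAM1, which encodes the S-adenosylmethionine synthetase that feeds ethylene synthesis, gave signals of 8832, 8347 and 8741 in the egg cell pools, 10317, 11124 and 11639 at the fertilized egg stage and 7787, 8230.4 and 9806 in the zygote pools. Its fertilized eggs were above all other arrays, with changes of 0.35 ± 0.23 (SE, limma adjusted p = 0.683) and -0.36 ± 0.23 (SE, limma adjusted p = 0.597).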

How the data were processed

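The authors deposited a linear intensity for every probe set on every array. According to the submitters' processing notes it came from MAS5, whose version the sources used here do not give. The mean after trimming 2 percent from either end was 500.1 on every array, so the deposited intensity values share that mean. Their medians were not equal. In replicate order, the egg cell arrays had medians of 36.48, 50.88 and 37.75. The fertilized egg arrays had 64.25, 47.28 and 95.36, and the zygote arrays 54.03, 218.3 and 101.4. The part of these medians in the changes of dim genes was not tested, apart from the values under quantile normalization.

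The table holds 57381 probe sets, and 57194 remained without controls. An annotation table paired 22436 of them with 1 gene, 95 with several and the others with none. Names came from RefSeq's gene table (assembly ASM3414082v1), which held all 17905 genes. The order of genes along a chromosome was read from it, but no coordinates are printed.

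Signals were transformed to log2(signal + 15), 15 being the 25th percentile of all values. Probe sets with a mean of at least 6.016, the median over rice probe sets, were kept. One linear model over the 9 arrays was fitted with limma 3.58.1 (R 4.3.3; lmFit, eBayes with trend), with 3 comparisons, a moderated F test and Benjamini-Hochberg adjustment over the 28597 probe sets at a threshold of 0.05. The fit was run on simulated data in which all 9 arrays had the same spread. The real arrays did not, so that run does not show how the fit handles their unequal quality. Alternatives were other offsets, no filter, no trend, quantile normalization, array weights, a replicate block, the arrays of each comparison alone, and leaving out each array in turn. Python 3.11.15, pandas 2.3.3 and matplotlib 3.10.9 were used for tables and plots. Precision is limited by the number of arrays.

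Genes are given with all their values when they were among the 5 smallest unadjusted p-values in a direction of a comparison or the 3 brightest of a role group, which gave 29 genes, or passed a threshold, which none did. Of the 51 genes, 42 have a plain probe set. Another 9 have one of the types that can be shared between transcripts: ETR3, ERS2, EIN2, EIL1A, RR4, RR41, AHP1, HK5 and LOGL1. From the list of other ethylene genes, 3 whose symbols matched by letters alone were left out after their names were read, and so were the genes HAP2A and HAP2B from the sperm cell markers, since that name is also used for a transcription factor subunit. The genes, gene lists and tests were all chosen with earlier results of these data known.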

Additional observations from a re-analysis of the deposited data

How the results depend on the processing

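Under the alternatives run, the count of pathway genes past the threshold was 0 in 67 of 67 recounts, and the lowest adjusted p by limma of any of them was 0.0508 (CKX3, fertilized egg minus egg, array weights). The number of probe sets called over the whole array was unstable, from 0 to 1248 for fertilized egg minus egg, 0 to 6 for zygote minus fertilized egg, 0 to 792 for zygote minus egg and 0 to 1569 in the F test, against 12, 0, 20 and 18 as reported. Of the 27 named genes tested, 15, 16 and 19 kept the sign of their log2 change in every setting, in the same order of comparisons. Several settings cannot alter a log2 change: no filter, no trend, the replicate block, the arrays of a comparison alone, and leaving out an array of the stage not compared. Most named genes were also picked for small p-values in these data, and the share over all genes was not counted. The counts are therefore no measure of stability. Leaving out 1 array moved the log2 change by over 1.5 times or turned its sign in at least 1 of the 9 cases for 20, 22 and 22 of these 27 genes, and quantile normalization did so for 9, 13 and 15. That range stands beside most changes of the named genes. With a replicate block, 0 pathway genes passed, and 8, 0, 8 and 6 probe sets were called over the whole array. Deviations of arrays with the same number correlated at -0.224 to 0.138, and only fertilized egg 1 and zygote 1 correlated best with their own number, so the numbers were not taken as pairing the samples. Dim genes, with signals near the offset of 15, have log2 changes that understate differences most. The width of the intervals did not follow dimness alone. LOGL7, with a mean signal of 240, had an SE of 1.06, and the dimmer LOGL9, with a mean of 56.5, had 0.64.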

Other observations

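Of the 51 genes, 9 have 10 further probe sets, all dimmer than the one used, and 5 of these 10 were bright enough to be tested. By limma none passed the threshold. For AHP1 the second probe set gave -0.92 and 0.73 for the steps from egg to fertilized egg and on to the zygote, with the signs of the brighter one. For LOGL7 it gave 1.12 and 0.85, where the brighter one gave 1.05 and -0.62, so the probe sets differ in sign in the second step. The LOG gene's dimmer probe set, below the filter, gave signals of 19.6, 1.18 and 14.1 in the egg cell pools. These signals lie near or below the offset. It gave 43.5, 38.4 and 41.2 at the fertilized egg stage and 30.6, 302 and 68.8 in the zygote pools. Every fertilized egg and zygote array was thus above every egg array, as with the brighter probe set. Whether this order at low signal reflects the unequal medians of the arrays was not tested.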
